A study of Mus musculus with 9 samples.

Results

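A set of 10 genes that mark the lining of blood vessels, Pecam1, Cdh5, Kdr, Flt1, Tek, Tie1, Eng, Emcn, Vwf and Cldn5, was followed as a measure of vessels in mouse mammary tumours. They were taken by name from the deposited gene tables, and all 10 were found among the 18484 genes listed. The RNA-seq data covered 9 mammary tumours, with 1 library per tumour, from BlgCre-NeuKI mice of a mixed FVB/C57Bl6 background. These mice carried 1 Cre and 1 NeuKI allele: an activated rat Neu coding sequence, placed in the endogenous Erbb2 locus behind a floxed stop, is switched on where Cre is driven by the Beta-lactoglobulin promoter, mainly in luminal oestrogen receptor-negative mammary cells. The tumours received no treatment, and every group, including the one used as the baseline, carried the same alleles. There were 5 tumours high-amplified at Erbb2/Neu, all of them AC(NST), adenocarcinomas of no special type. The mice of MS1218.2 and MS1155.3 were parous, and those of the other 3 (MS1163.1, MS1163.2, MS1213.1) were virgin. The 3 not/low-amplified epithelial tumours came from parous mice: MS1210.1 and MS1349.1, which were ASQC, metaplastic adenosquamous carcinomas, and MS1166.1, which was AC(NST). The ninth tumour, MS1156.1, was a sarcoma from a parous mouse. All virgin mice had high-amplified tumours and both ASQC tumours were not/low-amplified, and the effects of amplification, parity and histotype therefore cannot be fully told apart. MS1163.1 and MS1163.2 carry 1 mouse number, and ages were not given in the sources used here.

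Endothelial cells form the inner surface of vessels, where cadherin 5 (Cdh5), platelet endothelial cell adhesion molecule (Pecam1) and claudin 5 (Cldn5) hold neighbouring cells together. Kdr and Flt1 are receptors for vascular endothelial growth factors, with Kdr the main signalling receptor and Flt1 a strong binder of ligand that also occurs as a soluble form. Tek, also called Tie2, is the receptor for angiopoietins and Tie1 its relative, while Eng is a co-receptor for the TGF-beta family, Emcn a sialomucin of venous and capillary endothelium, and Vwf a clotting protein stored by endothelial cells and platelets. In tumours such genes are often read together as a sign of how many vessels were sampled. In bulk tissue, fewer endothelial cells and less RNA per endothelial cell cannot be told apart.

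In the GENCODE M21 annotation of GRCm38 the 10 genes are protein-coding. Pecam1 (ENSMUSG00000020717) lies at chr11:106654217-106750628, Cdh5 (ENSMUSG00000031871) at chr8:104101625-104144511 and Kdr (ENSMUSG00000062960) at chr5:75932827-75978458. Flt1 (ENSMUSG00000029648) lies at chr5:147561604-147726011, Tek (ENSMUSG00000006386) at chr4:94739289-94874976 and Tie1 (ENSMUSG00000033191) at chr4:118471191-118490061. Eng (ENSMUSG00000026814) lies at chr2:32646595-32682669, Emcn (ENSMUSG00000054690) at chr3:137341067-137432185, Vwf (ENSMUSG00000001930) at chr6:125546774-125686679 and Cldn5 (ENSMUSG00000041378) at chr16:18776847-18778262. Reads in the exons of a whole gene were counted together, so that forms of Flt1 cannot be separated. Only Eng shares exon bases with another gene, 61 bases with Fpgs on the opposite strand, and the setting for strand in the counting is not given in the sources used here.

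RefSeq promoter sequences (GRCm38.p6) were at hand for 7 of the 10 genes. The 250 bases before the RefSeq start site are shown for 5 of them, chosen after their values were seen: Kdr was low and Flt1, Tek and Cldn5 were high in the tumour MS1166.1, and Eng stood apart in the sarcoma. GGAA, the core bound by ETS factors, which include regulators of endothelial genes, is in capitals on either strand (TTCC on the other strand).
Kdr (chr5:75978456-75978705, minus strand): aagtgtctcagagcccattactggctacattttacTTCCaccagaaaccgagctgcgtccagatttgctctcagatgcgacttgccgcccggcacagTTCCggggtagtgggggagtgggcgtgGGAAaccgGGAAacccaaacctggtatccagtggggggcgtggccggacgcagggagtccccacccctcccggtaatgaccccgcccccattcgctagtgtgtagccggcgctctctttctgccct
Flt1 (chr5:147726012-147726261, minus strand): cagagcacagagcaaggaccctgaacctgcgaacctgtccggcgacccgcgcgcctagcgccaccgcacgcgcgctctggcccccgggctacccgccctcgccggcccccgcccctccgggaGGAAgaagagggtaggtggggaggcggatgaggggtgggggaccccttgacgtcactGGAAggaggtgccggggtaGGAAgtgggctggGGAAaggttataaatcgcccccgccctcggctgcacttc
Tek (chr4:94739039-94739288, plus strand): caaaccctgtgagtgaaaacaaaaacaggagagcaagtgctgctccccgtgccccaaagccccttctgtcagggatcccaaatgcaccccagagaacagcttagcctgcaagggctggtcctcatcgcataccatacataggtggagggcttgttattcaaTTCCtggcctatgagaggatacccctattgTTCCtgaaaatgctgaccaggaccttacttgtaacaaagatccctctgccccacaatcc
Cldn5 (chr16:18776597-18776846, plus strand): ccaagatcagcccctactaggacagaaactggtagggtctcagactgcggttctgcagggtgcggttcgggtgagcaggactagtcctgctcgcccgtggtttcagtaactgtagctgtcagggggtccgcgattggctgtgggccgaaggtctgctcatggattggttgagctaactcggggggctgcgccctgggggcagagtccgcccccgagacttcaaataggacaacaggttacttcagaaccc
Eng (chr2:32646345-32646594, plus strand): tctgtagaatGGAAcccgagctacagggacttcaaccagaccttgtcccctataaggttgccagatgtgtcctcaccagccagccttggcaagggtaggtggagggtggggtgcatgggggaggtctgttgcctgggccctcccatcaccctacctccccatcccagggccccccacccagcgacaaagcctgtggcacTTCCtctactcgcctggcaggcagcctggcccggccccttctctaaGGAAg
There were 4 matches in Kdr, 4 in Flt1, 2 in Tek, 0 in Cldn5 and 3 in Eng. Since 93.4% of 32851 windows of this length hold at least 1 match, with a median of 3, the count is a description of these letters only.

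Between 12501225 and 23912429 reads were counted on genes per tumour. Values below are normalised counts, the counts divided by a size factor per tumour, and the lowest raw count of any of the 10 genes in any tumour was 18, for Cldn5 in MS1155.3. Erbb2 lay between 5284 and 105019 normalised counts in the high-amplified tumours, between 1532 and 2783 in the not/low-amplified tumours, with 1177 in the sarcoma. MS1218.2 was at 15261, and the labelled groups did not overlap. The assays of Neu copy number in the study differed from one another for MS1213.1 and MS1218.2, and the groups used here are those of the labels. The 7 epithelial marker genes (Epcam, Krt8, Krt18, Cdh1, Cldn3, Cldn4 and Cldn7) summed to between 33440 and 126867 in the 8 epithelial tumours and to 472 in the sarcoma. MS1218.2 and MS1166.1 stood apart from the other 6 epithelial tumours in the endothelial genes. The study's methods also name MS1218.2 as the exception to the high tumour-cell purity estimated from RNA in the other samples. Results that rest on these libraries are given with and without them.

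Per kilobase of exon, the level of the 10 genes over the 8 epithelial tumours had a median of 231 normalised counts for Cdh5, 160 for Pecam1, 148 for Eng, 108 for Kdr, 83.8 for Flt1, 59.0 for Tie1, 54.0 for Vwf, 46.1 for Tek, 42.6 for Cldn5 and 38.4 for Emcn. The range over the 8 tumours was 110 to 1219 for Cdh5 and 18.7 to 119 for Emcn. Each gene's range overlapped that of its neighbour in this order. In the sarcoma the order was led by Eng, at 763 per kilobase, followed by Cdh5 at 277.

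The junction genes were highest in MS1218.2. The values that follow are given, for the high-amplified tumours, in the order MS1213.1, MS1163.1, MS1163.2, MS1218.2, MS1155.3, and for the not/low-amplified tumours in the order MS1210.1, MS1349.1, MS1166.1. The normalised count of Cdh5 was 977, 967, 872, 5124 and 627 in the high-amplified tumours, 1077.5, 1536 and 464 in the not/low-amplified tumours, with 1163 in the sarcoma. That of Pecam1 was 873, 759, 1179, 3154 and 701, then 1115, 1459.7 and 528, and 607 in the sarcoma. For both genes MS1218.2 was above all other tumours, MS1166.1 was the lowest of all 9, and the high-amplified and not/low-amplified groups overlapped. The normalised count of Cldn5 was 49.1, 54.6, 60.9, 377 and 23.2, then 59.8, 108 and 143, and 78.1 in the sarcoma. Here MS1166.1 was the second highest of the epithelial tumours, where it had been the lowest for Cdh5 and Pecam1.

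The growth factor receptors parted in the same tumour. Kdr was at 960.15, 998, 1122, 2007.85 and 886 normalised counts in the high-amplified tumours, at 855, 1352 and 239 in the not/low-amplified tumours, with 685 in the sarcoma. Flt1 was at 918, 1035, 990.5, 2019 and 846 in the high-amplified tumours, at 1629.6, 1229.6 and 1789 in the not/low-amplified tumours, with 555 in the sarcoma, the lowest of all 9. For Kdr the 3 virgin tumours spanned less than the not/low-amplified tumours, in which MS1166.1 was 0.244 of the median of the 6 other epithelial tumours. For Flt1 the same tumour was 1.77 times that median. The 2 ASQC tumours and MS1166.1 were above every high-amplified tumour but MS1218.2 in Flt1, so the groups overlapped through that tumour alone.

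The angiopoietin receptor pair showed a like split. Tie1 was at 287, 277, 293, 1429 and 215 in the high-amplified tumours, at 299.6, 419 and 163 in the not/low-amplified tumours, with 208 in the sarcoma. Tek was at 216, 135, 262, 508 and 149 in the high-amplified tumours, at 152, 218 and 479 in the not/low-amplified tumours, with 252.5 in the sarcoma. MS1218.2 was highest for both genes, MS1166.1 was lowest of all 9 for Tie1 and second highest for Tek, and the groups overlapped.

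Among the surface and secreted proteins, Eng was at 713, 605, 505, 2756 and 384 in the high-amplified tumours, at 595, 834 and 228 in the not/low-amplified tumours, with 3089 in the sarcoma. It was the only one of the 10 genes for which MS1218.2 was not the highest of all 9 tumours. Emcn was at 189, 199, 216, 642 and 149, then 276, 339.7 and 101, and 126 in the sarcoma. Vwf was at 1365, 379.8, 785, 2645 and 636, then 948, 1569 and 591, and 654 in the sarcoma. Leaving MS1218.2 and MS1166.1 aside, the highest of the 6 epithelial tumours was 4.13 times the lowest for Vwf and 4.66 times for Cldn5, and between 1.58 times (Kdr) and 2.45 times (Cdh5) for the other 8 genes. The 2 tumours of mouse MS1163 were within 1.5 times of each other for 7 of the 10 genes, and differed by 2.07 times for Vwf, 1.94 times for Tek and 1.55 times for Pecam1.

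**Figure D1:**
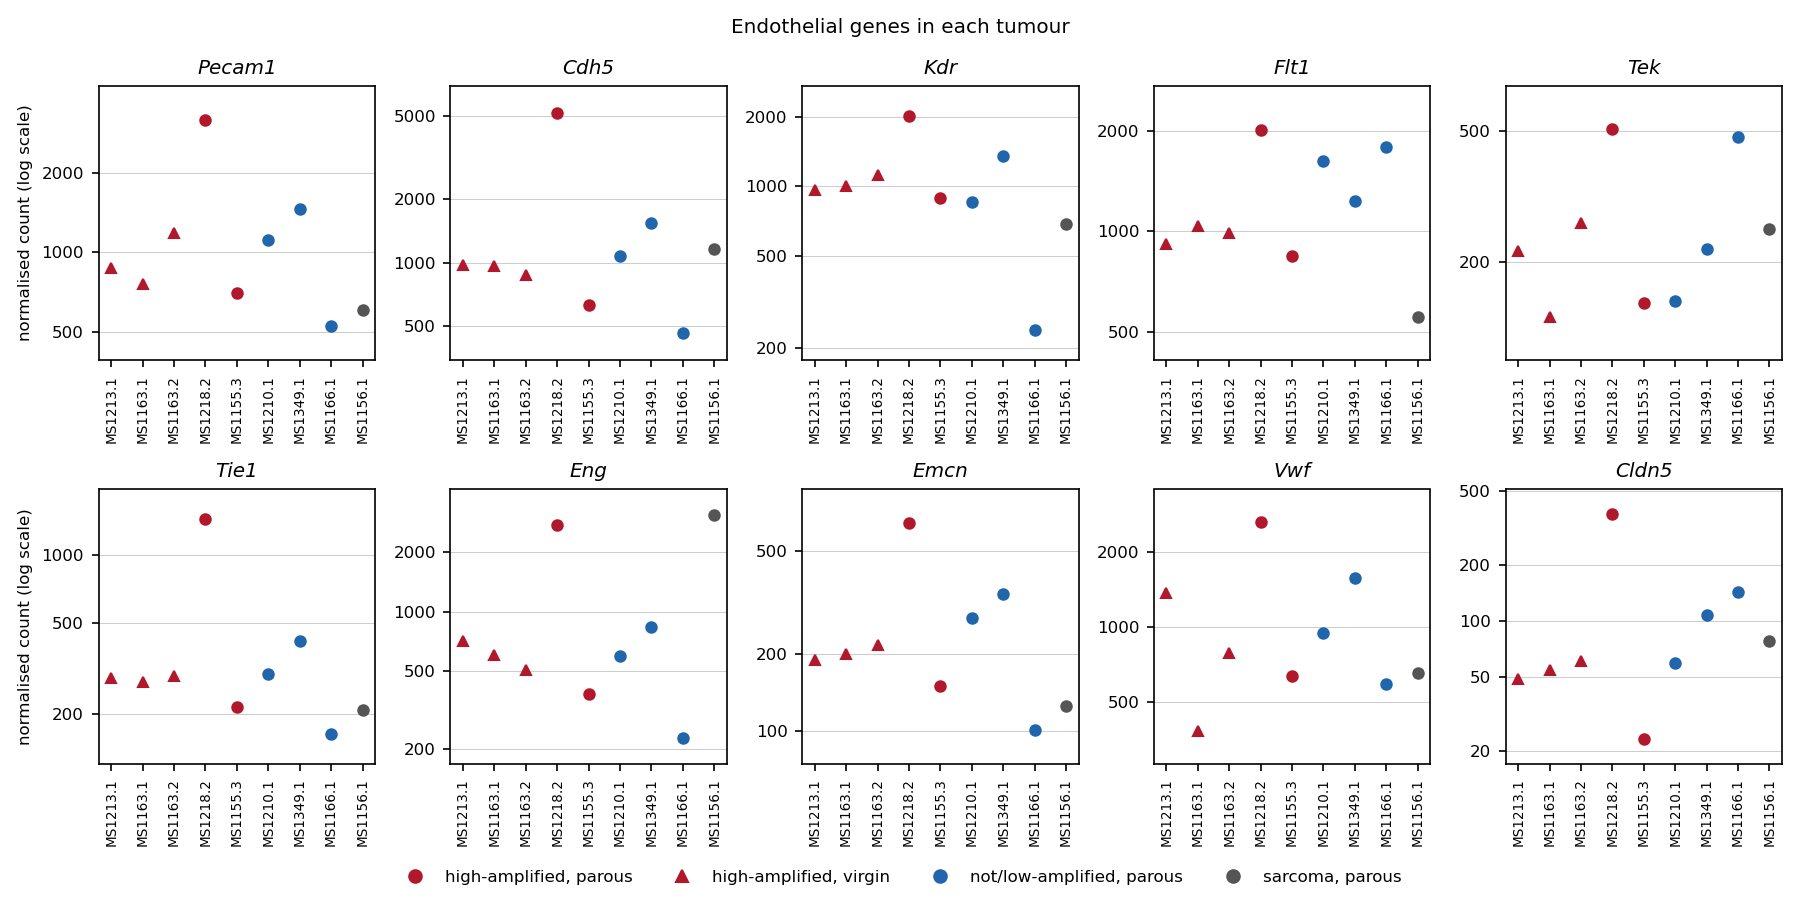
Normalised count of each of the 10 endothelial genes (vertical axes, log scale, 1 panel per gene) in the 9 tumours (horizontal axis). Each point is 1 library, coloured by amplification group, with triangles for virgin and circles for parous mice. MS1218.2 is the highest epithelial tumour in all 10 panels, and MS1166.1 is low in 6 panels and second highest in those of Flt1, Tek and Cldn5.

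The tumour richest in endothelial RNA was MS1218.2, which was the highest of the 8 epithelial tumours for 10 of the 10 genes. Over all genes tested, 20% were highest in this tumour. It exceeded the next highest epithelial tumour by 3.41 times for Tie1, 3.33 times for Cdh5 and 3.31 times for Eng, and by 1.06 times for Tek and 1.13 times for Flt1. Against the median of the other 7 epithelial tumours it was 6.30 times as high for Cldn5, 5.30 times for Cdh5 and 1.95 times for Flt1. The other high-amplified tumour of a parous mouse, MS1155.3, was the lowest of the 8 for Flt1 and Cldn5, so the parous high-amplified tumours held both ends of the range for these 2 genes. The mean of the z-scored log2 values of the 10 genes was 1.81 in MS1218.2, 0.42 in MS1349.1, -0.03 in MS1210.1, -0.15 in MS1163.2, -0.19 in MS1213.1, -0.47 in MS1163.1, -0.62 in MS1166.1 and -0.78 in MS1155.3.

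Some other cell types moved with the endothelial genes in MS1218.2. Of 30 further endothelial genes, 26 were highest in this tumour, as were 10 of 12 genes of mural cells, the pericytes and smooth muscle cells that wrap vessels. The summed level of the mural genes was 47655 there against 11836 to 19122 in the 6 other epithelial tumours besides MS1166.1, with Acta2, the smooth muscle actin, at 11087. The same held for 7 of 10 leukocyte genes, which summed to 45580 against 5542 to 16286, and for 5 of 7 fibroblast genes, which summed to 375568 against 43315 to 114707. Of the 7 epithelial genes, 0 were highest in this tumour. Nor did every list of other cells move: 0 of 5 adipocyte and 0 of 5 skeletal muscle genes were highest there. For red cells it was 2 of 6 genes and for lymphatic endothelium 2 of 7. The B cell gene Cd79a was at 0 in 4 of the 9 tumours and the T cell gene Cd8a at 0 in 2. Of 5 platelet genes, 4 were highest in MS1218.2, with Pf4 at 1181, Ppbp at 118, Gp9 at 13.0 and Gp1ba at 2.78. The last 2 were at 0 in 6 and 5 of the 9 tumours. The part of these other cells in the endothelial values was not tested.

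**Figure D2:**
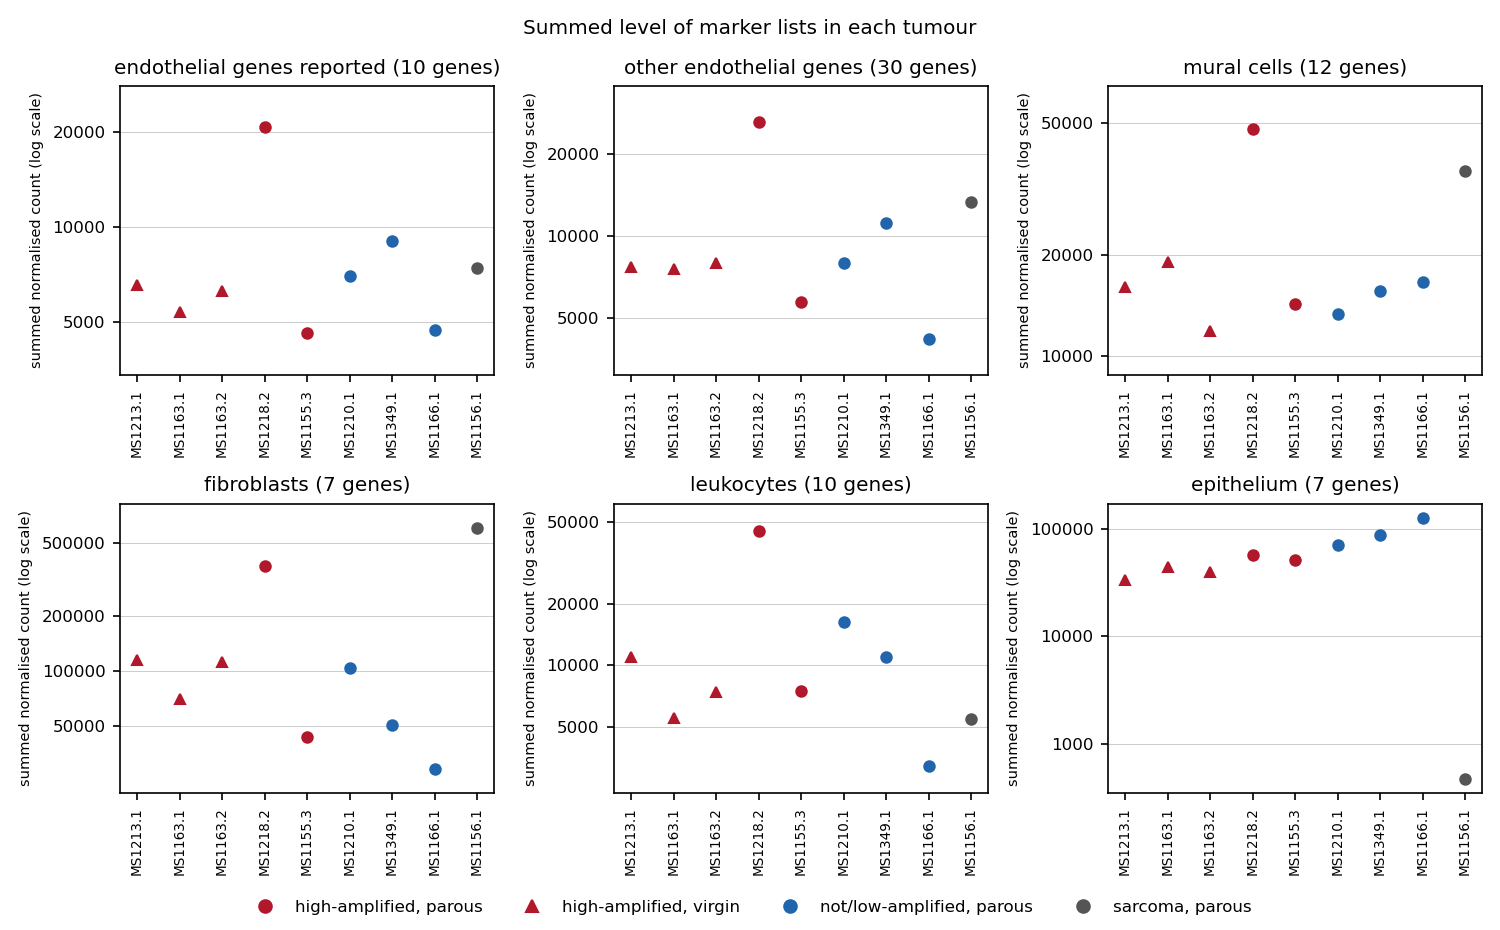
Summed normalised counts (vertical axes, log scale) of 6 lists of marker genes in the 9 tumours (horizontal axis), 1 point per library, coloured by amplification group and shaped by parity. MS1218.2 is highest of the epithelial tumours in the endothelial, mural, fibroblast and leukocyte panels, and the sarcoma falls to 472 in the epithelial panel.

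The tumour in which the 10 genes lay on both sides of the others was MS1166.1, the AC(NST) tumour without high amplification. Pecam1, Cdh5, Kdr, Tie1, Eng and Emcn, 6 of the 10 genes, were lowest there of the 8 epithelial tumours, against 20.8% of all genes tested (24.8% lay below the 6 tumours other than MS1218.2), and 18 of the 30 further endothelial genes were lowest there too. Flt1, Tek and Cldn5 were instead above each of the 6 other epithelial tumours besides MS1218.2. These are 3 of 10 genes, a share near the 25.8% of all genes that did so, and the count alone does not set the endothelial genes apart. Of the 30 further endothelial genes only Ecscr, an endothelial surface protein, did so, at 809 normalised counts against 61.6 to 313 in those 6 tumours. Ecscr shares exon bases with a gene of the opposite strand in the annotation.

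Ratios within a library do not depend on its size factor. The ratio of Flt1 to Kdr counts was 7.48 in MS1166.1 (1504 and 201 reads, exact 95% binomial interval 6.45 to 8.71), against 1.91 in MS1210.1 and 0.883 to 1.04 in the other 6 epithelial tumours. The ratio of Tek to Tie1 was 2.94 (403 and 137 reads, interval 2.42 to 3.60), against 0.356 to 0.894 in the other 7. The ratio of Cldn5 to Cdh5 was 0.308 (120 and 390 reads, interval 0.249 to 0.378), against 0.0370 to 0.0735. In each pair the ratio in MS1166.1 was over 3 times the highest of the other 7 epithelial tumours, by 3.93, 3.29 and 4.18 times. These pairs were not among the planned comparisons. Each sets a gene high in MS1166.1 over a gene low there, so a high ratio followed from the values above. The share of all gene pairs with such a ratio was not computed. By contrast the ratio of Emcn to Pecam1 was 0.191 in MS1166.1, within the 0.183 to 0.263 of the other 7, and so was that of Tie1 to Pecam1, at 0.309 within 0.249 to 0.453. The ratio of Kdr to Pecam1, at 0.453, was instead below the 0.637 to 1.32 of the other 7, so that Kdr was low in MS1166.1 beyond the level of Pecam1. The intervals cover counting error only, and with 1 library these ratios have no replicate.

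**Figure D3:**
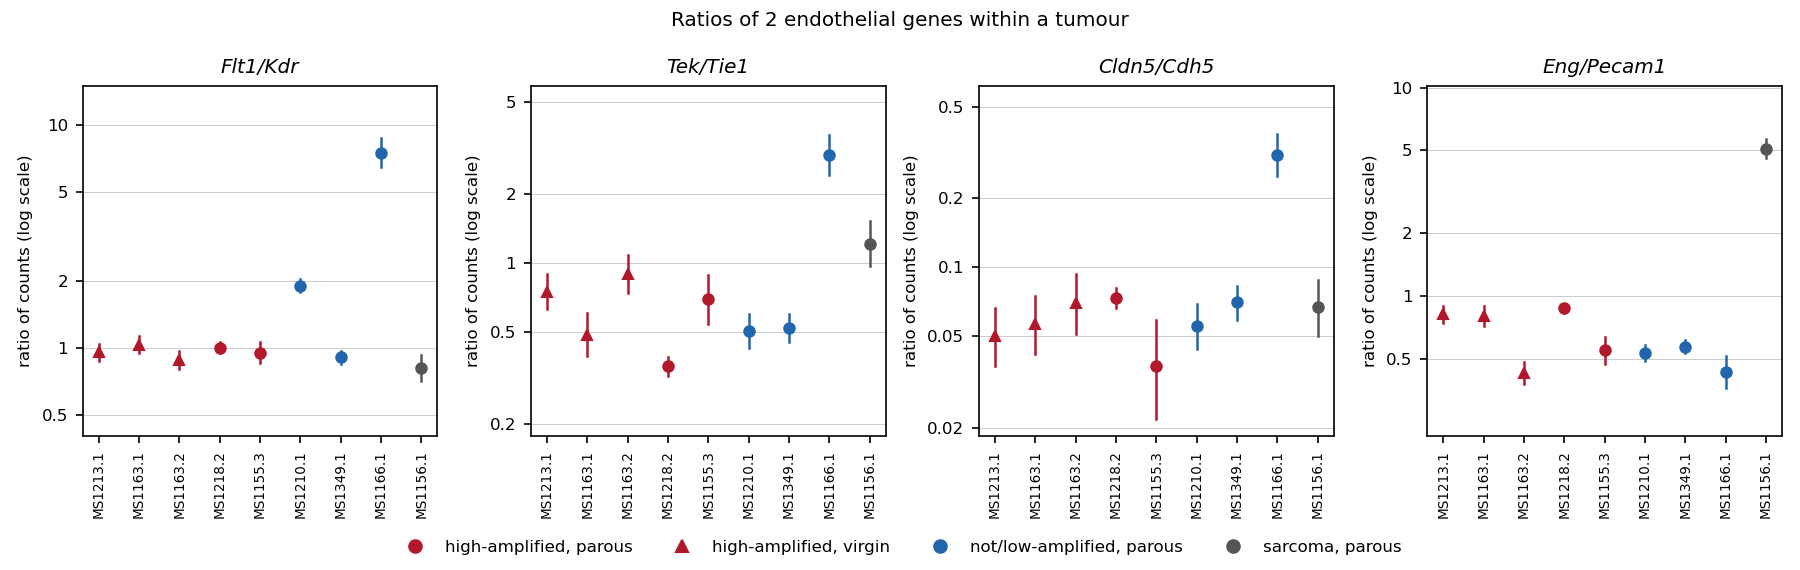
Ratio of the counts of 2 endothelial genes within each library (vertical axes, log scale, 1 panel per pair) in the 9 tumours (horizontal axis), with bars for exact 95% binomial intervals. MS1166.1 stands above all other tumours in Flt1/Kdr, Tek/Tie1 and Cldn5/Cdh5, and the sarcoma does in Eng/Pecam1, at 5.09.

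In MS1166.1 leukocyte genes were lowest of the 8 epithelial tumours for 8 of 10 genes, with a sum of 3215, and mural genes for 8 of 12. Over all genes tested, 20.8% were lowest there. The mural sum, 16673, lay within the 11836 to 19122 of the 6 other epithelial tumours besides MS1218.2. Mcam and Notch3 were the mural genes above the 6 other tumours besides MS1218.2. Epithelial genes were above those 6 tumours for 6 of 7, beside 25.8% of all genes, with a sum of 126867. Pdpn, a lymphatic endothelial and also epithelial surface protein, was at 4130 against 122 to 1077 in those 6 tumours, while the lymphatic regulator Prox1 was at 1.19. Whether cells other than endothelium gave the reads of Flt1, Tek and Cldn5 was not tested.

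**Figure D4:**
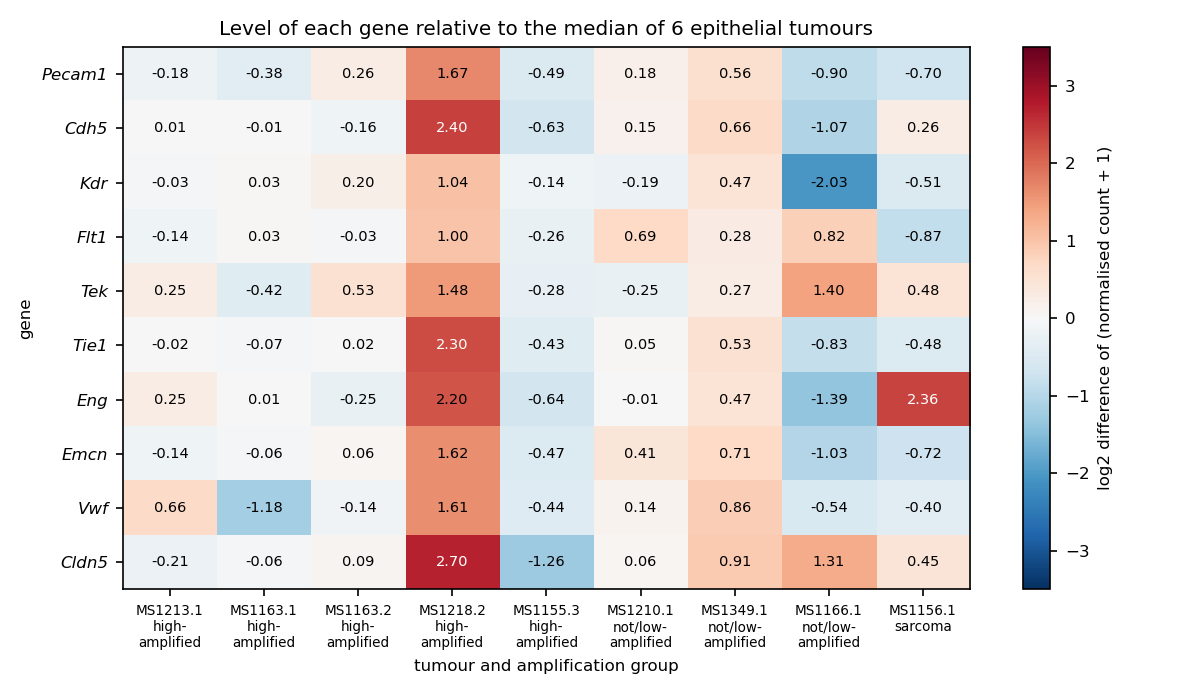
Difference of log2(normalised count + 1) of each endothelial gene (rows) in each tumour (columns) from the median of the 6 epithelial tumours other than MS1218.2 and MS1166.1. The column of MS1218.2 is positive throughout, from 0.995 (Flt1) to 2.70 (Cldn5), while that of MS1166.1 runs from -2.03 (Kdr) to 1.40 (Tek).

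Over the 8 epithelial tumours the correlation of each gene with the mean z-score of the other 9 was highest for Tie1 (Pearson 0.97, Spearman 0.98), Cdh5 (0.96 and 0.90) and Pecam1 (0.95 and 0.90). It was lowest for Tek (0.43 and 0.36) and Flt1 (0.50 and 0.24). Without MS1218.2, over 7 tumours, the Pearson values were 0.88 for Tie1, 0.20 for Cldn5, -0.06 for Flt1 and -0.27 for Tek. Without MS1166.1 as well, over 6 tumours, they were 0.98 for Tie1, 0.94 for Cldn5, 0.48 for Flt1 and 0.47 for Tek. The points share libraries and their depth, and these values are descriptions.

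Of 13997 other genes, the 10 whose log2 values were most like the mean z-score of the endothelial genes over the 8 epithelial tumours included Esam (Pearson 0.99), S1pr1 (0.99), Alox5ap (0.98), Cmtm3 (0.97), Vash1 (0.97), Fscn1 (0.97), Ramp2 (0.97), Flt4 (0.97) and P2ry6 (0.96). Esam is an adhesion molecule of endothelial junctions, S1pr1 a sphingosine 1-phosphate receptor of endothelium and lymphocytes and Flt4 the receptor for Vegfc. Among the first 100 were 8 of the 30 further endothelial genes. With Spearman's measure 3 were, and without MS1218.2 2 were, with Esam at position 3 in the Pearson order.

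The comparison of high-amplified with not/low-amplified tumours, the contrast of the study, called 0 of the 10 endothelial genes. A gene was called by edgeR's quasi-likelihood test at a Benjamini-Hochberg adjusted p under 0.05 over 14007 genes and a fold change over 2, which 0.921% of all genes passed. The count was also 0 of 10 at an unadjusted p under 0.05, which 22.8% of all genes reached, and 0 of 10 with DESeq2, which called 10.8% of the genes it tested. The 2 groups overlapped for each of the 10 genes, against 15.6% of genes without overlap. The log2 fold change (high-amplified minus not/low-amplified) was above 0 for 8 genes and below 0 for Flt1 and Tek, with a median of 0.30 over the 10 genes and 0.02 over all genes.

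The largest estimate was that of Eng, 0.85 (SE 0.71, 95% interval -0.73 to 2.44, adjusted p = 0.489 by edgeR), beside means of 992.5 ± 993 (SD, n = 5) and 552 ± 305 (SD, n = 3). Flt1 had an estimate of -0.39 (SE 0.32, interval -1.12 to 0.33, adjusted p = 0.486 by edgeR), with 1162 ± 485 (SD, n = 5) against 1549 ± 288 (SD, n = 3). The other adjusted p-values lay between 0.518 for Tie1 and 0.926 for Cldn5. Each of the 10 intervals included 0, and each also included a fold change over 2 in at least 1 direction.

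For 7 of the 10 genes leaving out 1 tumour turned the sign of the estimate, and for Kdr, Flt1 and Eng it did not, although Eng fell to 0.00692 without MS1218.2. Without MS1218.2 the log2 fold change was below 0 for 8 of the 10 genes, among them Cdh5 (0.75 with all 8 tumours, -0.24 without), Pecam1 (0.37 and -0.23), Tie1 (0.78 and -0.12) and Cldn5 (0.15 and -1.12). Flt1 then came nearest to a call, at -0.69 (SE 0.19, interval -1.12 to -0.26, adjusted p = 0.0513 by edgeR), in a fit that called 9.08% of all genes, and the fold change stayed under 2. With parity as a covariate the estimate for Flt1 was -0.0874 (adjusted p = 0.931 by edgeR), and among parous tumours alone it was -0.0487 (adjusted p = 0.975). Without MS1166.1 as well, 9 of the 10 genes were below 0, from -0.84 (Cldn5) to 0.04 (Tek), with 0 called where 5.72% of all genes were, and the contrast was then also that of AC(NST) with ASQC. Among AC(NST) tumours alone, where MS1166.1 was the single not/low-amplified tumour and was taken to vary like the others, Kdr was 2.30 higher in the high-amplified tumours (SE 0.65, unadjusted p = 0.00736 and adjusted p = 0.138 by edgeR).

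Histotype called 0 of the 10 genes in the 2 ASQC tumours against the 6 AC(NST) tumours, where 0.236% of all genes were called, and the groups overlapped for each gene, against 10.3% of genes without overlap. The log2 fold change (ASQC minus AC(NST)) ran from -0.64 for Tek (SE 0.59, interval -1.95 to 0.67, adjusted p = 0.790 by edgeR) to 0.30 for Emcn, with a median of -0.06 over the 10 genes and -0.08 over all genes. Tek was at 185 ± 47.0 (SD, n = 2) in ASQC and 292 ± 163 (SD, n = 6) in AC(NST). Without MS1218.2 the estimate was above 0 for 9 of the 10 genes, with Tek at -0.40, and Emcn reached 0.85 (unadjusted p = 0.0495 and adjusted p = 0.374 by edgeR). Within the not/low-amplified tumours MS1166.1 was the single AC(NST) tumour, and the spread came from the 2 ASQC tumours alone. The estimates there ran from -1.28 (Tek) to 2.30 (Kdr), and with 1 tumour on 1 side the fit cannot decide whether a gene differs. At an unadjusted p under 0.05 in all 8 tumours there were 0 of the 10 genes and 8.72% of all genes. DESeq2, which called 3.44% of all genes, called 0 of the 10 and gave no p for Cdh5 and Tie1.

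Parity called 0 of the 10 genes in the 5 parous against the 3 virgin tumours, in a comparison with 0% of all genes called by edgeR and 3.57% by DESeq2, which also called 0 of the 10. At an unadjusted p under 0.05 there were 0 of the 10 genes and 14.2% of all genes. The log2 fold change (parous minus virgin) was above 0 for all 10 genes, from 0.06 (Kdr) to 1.37 (Cldn5), with a median of 0.60 against 0.10 over all genes. Cldn5 was at 142 ± 139 (SD, n = 5) in parous and 54.9 ± 5.90 (SD, n = 3) in virgin tumours (SE 0.80, interval -0.42 to 3.17, adjusted p = 0.436 by edgeR). Flt1 was at 1503 ± 466 (SD, n = 5) against 981 ± 59.0 (SD, n = 3), and its estimate was 0.61 (SE 0.31, interval -0.08 to 1.29, adjusted p = 0.385 by edgeR), and only MS1155.3 of the parous tumours was below the virgin tumours. Without MS1218.2 the estimates were above 0 for 6 of the 10 genes, from -0.30 (Kdr) to 0.59 (Cldn5). The groups overlapped for each of the 10 genes, against 9.25% of genes without overlap. With all 8 tumours, the 3 virgin tumours, 2 of them from 1 mouse, had the smaller SD for each of the 10 genes. The parous tumours included MS1218.2 and MS1166.1. Without these it did not hold for Tek (149 to 218 in parous, 135 to 262 in virgin tumours) or Vwf (636 to 1569 and 380 to 1365).

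**Figure D5:**
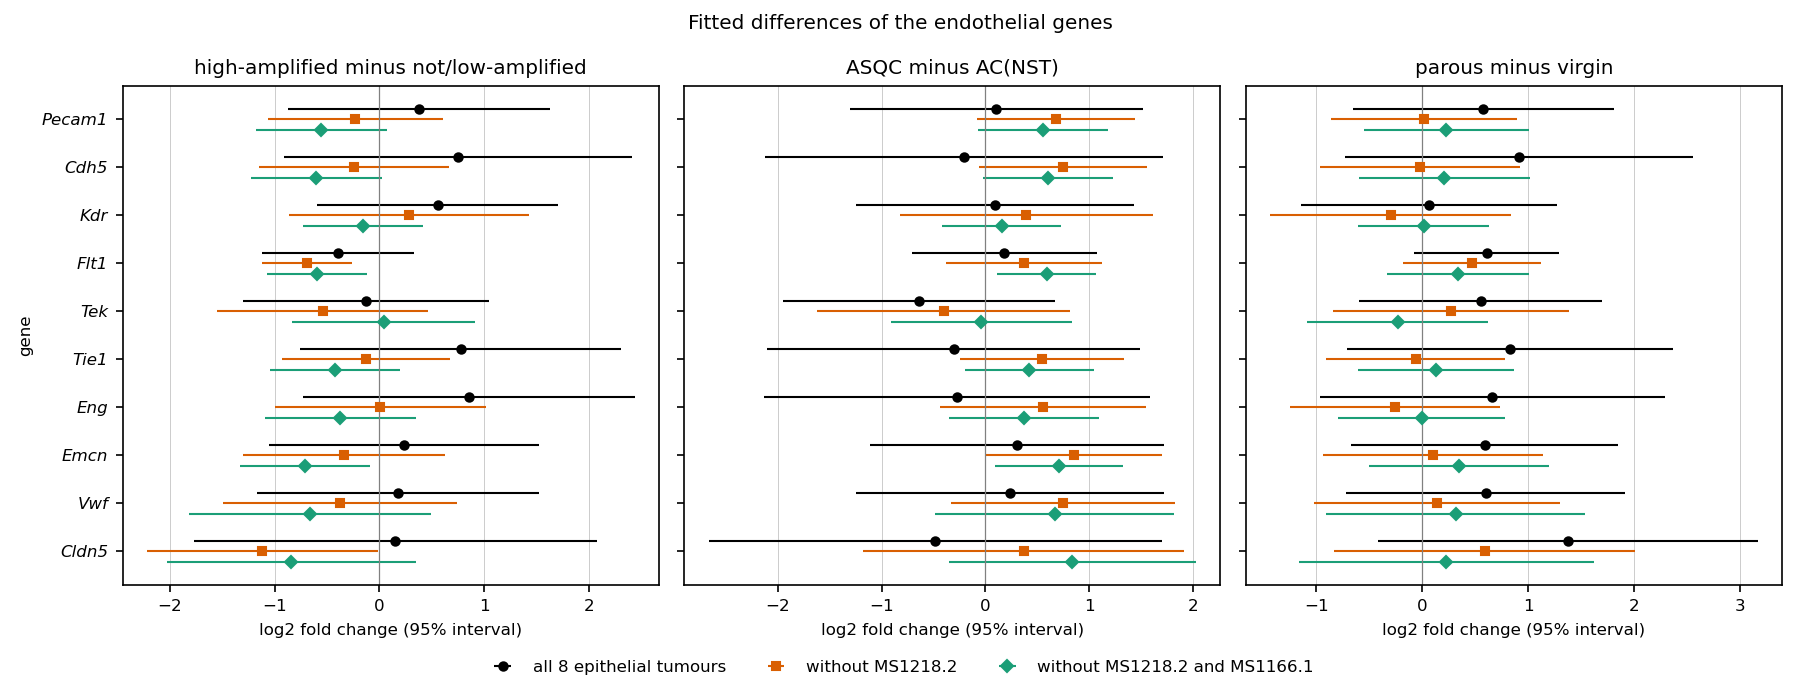
Fitted log2 fold change (points) with 95% interval (bars) of each endothelial gene (vertical axis) in the comparisons of amplification, histotype and parity (panels), with all 8 epithelial tumours, without MS1218.2, and without MS1218.2 and MS1166.1. With all 8 tumours every interval includes 0, and in the amplification panel 8 of the 10 points lie above 0 with all tumours and 2 without MS1218.2.

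Other genes of vessels and of other cells were taken from lists, of which edgeR called 0 genes in each of the 3 comparisons. By amplification edgeR called 0 of 30 further endothelial genes, 0 of 16 angiogenic ligands, 0 of 12 co-receptors and partners, 0 of 6 lymphatic genes tested and 0 of 12 mural genes. DESeq2 called 1, 3, 2, 2 and 1 of them, beside 10.8% of all genes it tested. These were Egfl7, then Figf, Pgf and Efnb2, then Itgb3 and Ephb4, then Pdpn and Lyve1, then Abcc9. The median log2 fold changes of these lists were 0.64, 0.07, 0.24, 0.15 and 0.78. The integrin subunit Itgb3, which pairs with the alpha v integrin on endothelium and other cells, had the smallest adjusted p of the co-receptors, with a log2 fold change of 3.27 (SE 0.64, adjusted p = 0.0510 by edgeR). It was called without MS1218.2, at 3.48 (adjusted p = 0.0181). The Eph receptor Ephb4 was at 1.06 (adjusted p = 0.124 by edgeR) and the junction partner Ctnnb1 at -0.93 (adjusted p = 0.286), with 73640 normalised counts in MS1166.1 against 12158 to 25184 in the other 8 tumours.

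Of the ligands, the ephrin Efnb2 was at -1.31 (adjusted p = 0.1005 by edgeR), Figf, now named Vegfd, at 2.57 (adjusted p = 0.118) and the placental growth factor Pgf, a ligand of Flt1, at 1.84 (adjusted p = 0.134). Of the further endothelial genes, Egfl7, a secreted vessel protein, was at 1.19 (adjusted p = 0.106 by edgeR), Ecscr at -1.81 (adjusted p = 0.167) and Cyyr1 at 1.02 (adjusted p = 0.230). Egfl7 was the only one of the 30 without overlap between the groups, where 15.6% of all genes had none. It ran from 296 to 448 in the high-amplified and from 101 to 239 in the not/low-amplified tumours. Ecscr was called without MS1218.2, at -2.77 (adjusted p = 0.0150 by edgeR). With MS1166.1 left out as well it was also called, at -2.17 (adjusted p = 0.0253 by edgeR), in a fit that called 5.72% of all genes. Of the lymphatic genes, Pdpn was at -2.43 (adjusted p = 0.121 by edgeR), Reln at 5.58 (adjusted p = 0.154), with 5392 normalised counts in MS1213.1 alone and 1.41 to 206 in the other epithelial tumours, and Lyve1 at 2.33 (adjusted p = 0.171). Pdpn was called without MS1218.2, at -3.09 (adjusted p = 0.0399 by edgeR). With MS1166.1 left out as well it was not called, at -1.79 (adjusted p = 0.0807 by edgeR). Of the mural genes, the channel subunit Abcc9 was at 1.29 (adjusted p = 0.130 by edgeR), the filament Des at 2.72 (adjusted p = 0.230) and the receptor Pdgfrb at 0.94 (adjusted p = 0.380).

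In the sarcoma the 10 endothelial genes were not raised as a group. One gene, Eng, was above all 8 epithelial tumours, against 21.7% of all genes, and 1 gene, Flt1, was below all 8, against 20.8% of all genes. Eng was 5.15 times the median of the epithelial tumours and 1.12 times the highest of them, MS1218.2. The other 9 genes lay between 0.49 times (Flt1) and 1.29 times (Cldn5) the epithelial median. The ratio of Eng to Pecam1 counts was 5.09 in the sarcoma (2214 and 435 reads, exact 95% binomial interval 4.59 to 5.65) against 0.428 to 0.874 in the 8 epithelial tumours. The ratio of Flt1 to Kdr was 0.811 in the sarcoma (interval 0.708 to 0.927), below each of the 8. That interval overlapped the 0.801 to 0.972 of MS1163.2, the lowest epithelial tumour at 0.883.

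Among the 30 further endothelial genes, 2 were above all 8 epithelial tumours in the sarcoma, Clec14a at 5216 normalised counts, 10.3 times the highest epithelial tumour, and Tmem204 at 375, and 5 were below all 8. Nrp1, a co-receptor of growth factor receptors, was at 10125 against 472 to 3336, and the mural genes Cspg4 and Mcam were at 10355 and 12230, both above all 8. Of the 12 mural genes, 3 were above all 8 (the third was Des) and 4 were below all 8, with the smooth muscle genes Acta2 and Cnn1 at 290 and 6.98, Kcnj8 at 105 and Notch3 at 2536. These genes were named after their values were seen. Of the fibroblast genes, 5 of 7 were above all 8, and the skeletal muscle genes summed to 13211, against 11.5 to 2733 in the epithelial tumours. With 1 sarcoma there is no replicate and no test, and the part of these other cells in the level of Eng was not tested.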

How the data were processed

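RNA from 9 mouse mammary tumours was depleted of ribosomal RNA and sequenced in pairs by the authors, who aligned reads to mouse genome build 38 with STAR, kept reads with a unique position and counted them with HTSeq-count. The deposited count values are whole numbers per gene for 9 tumours. The deposited signal values of the 8 epithelial tumours are these counts divided by 1 DESeq2 size factor per tumour. The sarcoma was scaled here to the same reference. Each tumour was treated as a replicate, and p-values measure the spread between tumours.

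Genes that reached 10 counts in 3 or more of the 8 epithelial tumours were tested with edgeR 4.0.16 (TMM, quasi-likelihood). DESeq2 1.42.0, limma 3.58.1 on log2 values with pseudocounts of 1, 0.1 and 10, other scalings, filters, subsets and each tumour left out were alternatives. The 10 genes and all lists were chosen with earlier results of these data known. Named are the 10 genes, the 3 genes of each vessel list with the smallest p by amplification and the 10 genes most like the mean, 1 of which is not reported here. Lists of other cells are given by counts and sums, and any further gene was named after its values were seen. Leaving out both MS1218.2 and MS1166.1, and the likeness by Spearman's measure or without MS1218.2, were chosen after seeing the data.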

Additional observations from a re-analysis of the deposited data

Results flagged for a closer look

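Among the 5 high-amplified tumours MS1218.2 lay far from the other 4 for 8 of the 10 endothelial genes, by a gap that exceeded 0.71 of the whole range of the group. Its normalised counts were 3154 for Pecam1 (the next highest was 1179), 5124 for Cdh5 (977), 2007.85 for Kdr (1122), 2019 for Flt1 (1035), 1429 for Tie1 (293), 2756 for Eng (713), 642 for Emcn (216) and 377 for Cldn5 (60.9). The mean z-score of the 10 genes was 1.81 in MS1218.2, with the next value at -0.15, and passed the same limit. Chance marks about 1 in 20 groups in this way where values are normally distributed. For the genes the limit was applied to normalised counts, and on log2 values Pecam1, Eng and Cldn5 fall short of it. The 10 genes share their libraries, so that these are not 8 separate events. Tek and Vwf were also highest in MS1218.2 but did not pass this limit.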

How the results depend on the processing

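The number of endothelial genes called was 0 by amplification, histotype and parity under each of 52 alternative fits, 24 of which left out 1 tumour each. The smallest adjusted p was 0.0513, for Flt1 by amplification without MS1218.2. In the sarcoma 1 gene remained above and 1 below all 8 epithelial tumours under the other scalings, and no mean z-score moved by more than 0.125. The number of all genes called moved more: by amplification it was 129, but 1601 with DESeq2, 229 with no filter and 1 to 1255 with 1 tumour left out. By histotype it was 33, but 522 with DESeq2, 171 with no filter and 4 to 84 with 1 tumour left out, and by parity it was 0, but 516 with DESeq2 and 147 without MS1155.3.

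Signs by amplification were not stable. With MS1218.2 and MS1166.1 left out, the log2 fold changes turned to -0.55 for Pecam1, -0.60 for Cdh5, -0.16 for Kdr, -0.42 for Tie1, -0.37 for Eng, -0.71 for Emcn, -0.67 for Vwf, -0.84 for Cldn5 and 0.0402 for Tek. Limma with pseudocounts of 1, 0.1 and 10 gave -0.0471, -0.0474 and -0.0447 for Vwf and -0.51, -0.52 and -0.42 for Cldn5, and AC(NST) tumours alone gave -0.34 for Cldn5. Tek turned to 0.25 with parity as a covariate and to 0.29 among parous tumours, and Eng to -0.23 with the sarcoma among the not/low-amplified tumours. Leaving out 1 tumour at a time gave -0.23 to 0.72 for Pecam1, -0.24 to 1.18 for Cdh5, -0.12 to 1.14 for Tie1, -0.54 to 0.46 for Tek, -0.34 to 0.58 for Emcn, -0.38 to 0.62 for Vwf and -1.12 to 0.43 for Cldn5. The cause was not tested. Flt1 stayed below 0 by amplification under each alternative run, but between -0.69 and -0.0487. By histotype Tek, and by parity Flt1 and Cldn5, kept their sign, but with both tumours left out they moved from -0.64 to -0.0402, from 0.61 to 0.33 and from 1.37 to 0.23. Groups of 2 to 6 tumours leave intervals wide, and depth limits Cldn5 most, with 18 reads in MS1155.3.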

Other observations

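The following 2 endothelial genes were chosen after their values in the ASQC tumours were seen. Sox7, an endothelial transcription factor, was at 558 in MS1210.1 and 560.4 in MS1349.1, the ASQC tumours, against 8.33 to 317 in the 6 AC(NST) tumours, and was the only one of the 30 genes whose values did not overlap between histotypes (10.3% of all genes do not overlap). Its log2 fold change (ASQC minus AC(NST)) was 2.62 (adjusted p = 0.471 by edgeR). Without MS1218.2 and MS1166.1, histotype and amplification are the same contrast. Sox7 was then called, at -3.35 for high-amplified AC(NST) minus not/low-amplified ASQC (adjusted p = 0.0253 by edgeR). That fit called 2 of the 30 genes, Sox7 and Ecscr, beside 5.72% of all genes, and it was chosen after seeing the data. The arterial connexin Gja5 was at 279 and 127 in the ASQC tumours, at 418 in MS1218.2 and between 6.30 and 67.1 in the other 5 AC(NST) tumours. Its histotypes thus overlapped through MS1218.2, and its log2 fold change (ASQC minus AC(NST)) was 1.06 (adjusted p = 0.860 by edgeR).

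Of 16 angiogenic ligands, 7 were highest in MS1218.2, beside 20% of all genes, and their sum was highest there, at 13533 against 5172 to 11327 in the 6 other epithelial tumours besides MS1166.1. Some ligands peaked elsewhere. Vegfa, the main ligand of Kdr and Flt1, was highest in MS1155.3 at 6081 normalised counts, the tumour with the lowest mean z-score of the endothelial genes, and lowest of the epithelial tumours in MS1213.1 at 1418. Apln, a peptide made by sprouting vessels, was at 3653 in MS1349.1 against 70.2 to 1199 in the other 7. Angpt1, the activating ligand of Tek, was lowest in MS1218.2 at 99.98 and highest in MS1155.3 at 688. These values were chosen after they were seen and were not tested against the endothelial genes.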
